A study of Mus musculus with 4 samples.

Results

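The aminoacyl tRNA synthetase genes encode the enzymes that load each tRNA with its amino acid, the step that supplies protein synthesis. They were taken by their symbols (one letter of the amino acid code followed by ars, with Eprs, Farsa, Farsb and Fars2), which gave 37 of the 26026 genes in the table. Of these, 20 encode cytosolic enzymes and 17, with symbols ending in 2, encode the enzymes of the mitochondrial matrix. Kars and Gars serve both compartments, Eprs carries the activities for glutamate and proline, and Farsa and Farsb encode the subunits of a single enzyme. Expression was measured in BMDC, mouse bone marrow-derived cells grown with Flt3L, a growth factor under which marrow progenitors turn into dendritic cells. Sequencing covered polyadenylated RNA of Nfkb1-/- (C57/B16) cells and of wild-type (C57/B16) cells, each at day 3 and at day 5 of culture, with 1 library for each of the 4 combinations. Nfkb1 encodes p105, the precursor from which the NF-kB subunit p50 is made. The labels give no sort, no age or sex of the mice and no pooling, and the series' design names the interplay of the NF-kB subunits RelA and p50 in the differentiating cells as its question.

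Cytosolic and mitochondrial synthetases are separate sets of nuclear genes. Part of the cytosolic set is assembled with the scaffold proteins Aimp1, Aimp2 and Eef1e1 into the multisynthetase complex. Many cytosolic synthetase genes are known targets of Atf4, the transcription factor of the amino acid and stress response, while proliferating cells in general carry more of this machinery than resting ones. The mitochondrial enzymes serve the few proteins of the respiratory chain that are made inside the organelle.

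Recovered library totals ran from 15255070 to 16215214 reads. Levels are in RPKM, which divides reads by transcript length and by the library's total. Nfkb1 itself stood at 56.02 RPKM in Nfkb1-/- cells and 74.8 RPKM in wild type at day 3, and 64.7 RPKM in Nfkb1-/- cells and 114 RPKM in wild type at day 5, so its transcript was lower in both libraries labelled Nfkb1-/- and was still present in them. The labels do not say which part of the gene the allele lacks. All 6 conventional dendritic markers were above 1 RPKM in each library except Nfkb1-/- at day 3, where 5 were, and their summed level was 55.4 RPKM in Nfkb1-/- cells and 71.9 RPKM in wild type at day 3, and 89.6 RPKM in Nfkb1-/- cells and 209.97 RPKM in wild type at day 5. The cultures also held neutrophil RNA, since the 10 late neutrophil markers summed to 23848 RPKM in Nfkb1-/- cells and 33824 RPKM in wild type at day 3, and to 2959 RPKM in Nfkb1-/- cells and 13725 RPKM in wild type at day 5. In bulk RNA, a change in the share of a cell type and a change in the RNA per cell cannot be told apart. With 1 library per group, no difference below has a replicate check, and none was tested.

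Cytosolic synthetase mRNAs were several times more abundant than mitochondrial ones. The median over the 20 cytosolic genes was 28.3 RPKM in Nfkb1-/- cells and 20.4 RPKM in wild type at day 3, and 36.3 RPKM in Nfkb1-/- cells and 27.6 RPKM in wild type at day 5. The median over the 17 mitochondrial genes was 4.67 RPKM in Nfkb1-/- cells and 3.51 RPKM in wild type at day 3, and 5.87 RPKM in Nfkb1-/- cells and 5.05 RPKM in wild type at day 5. The ratio of the medians thus lay between 5.46 in wild type at day 5 and 6.18 in Nfkb1-/- cells at day 5. Valyl tRNA synthetase, Vars (NM_011690), had the highest mean over the libraries among cytosolic genes, at 59.7 RPKM. Gars (58.7 RPKM), Dars (58.3 RPKM) and Qars (56.97 RPKM) followed within the range that Vars itself spanned over the libraries, 48.9 to 68.1 RPKM, so the order among these genes is not resolved. Cars (NM_001252593), for cysteine, had the lowest mean of the class, 11.3 RPKM. Farsa and Farsb, which combine into 1 enzyme for phenylalanine, stood at a ratio of 1.45 in Nfkb1-/- cells and 1.24 in wild type at day 3, and of 1.35 in Nfkb1-/- cells and 1.302 in wild type at day 5.

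Mitochondrial levels were spread more widely. Lars2 (NM_153168), for leucine, led with a mean of 46.4 RPKM, followed by Iars2 (NM_198653), for isoleucine, with 23.7 RPKM. The third, Rars2, had a mean of 9.58 RPKM, and the other 14 had lower means. Ears2 (NM_026140), the mitochondrial enzyme for glutamate, was lowest, with 0.794 RPKM in Nfkb1-/- cells and 0.874 RPKM in wild type at day 3, and 1.11 RPKM in Nfkb1-/- cells and 1.14 RPKM in wild type at day 5. Its mean of 0.9805 RPKM put it alone under the filter of 1 RPKM that the comparisons used, so 36 of the 37 members entered them. In the 14 amino acids with 1 gene of each kind among the compared members, the cytosolic gene stood above its mitochondrial counterpart in all 4 libraries for each but leucine. Lars over Lars2 was 0.614 in Nfkb1-/- cells and 0.615 in wild type at day 3, and 1.08 in Nfkb1-/- cells and 0.606 in wild type at day 5. The widest gap was for alanine, with Aars at 17.1 times Aars2 in Nfkb1-/- cells and 19.1 times in wild type at day 3, and 20.002 times in Nfkb1-/- cells and 21.3 times in wild type at day 5. Reads behind these levels ran from 342 to 4430 a library for cytosolic genes and from 61 to 3858 for mitochondrial ones.

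**Figure D1:**
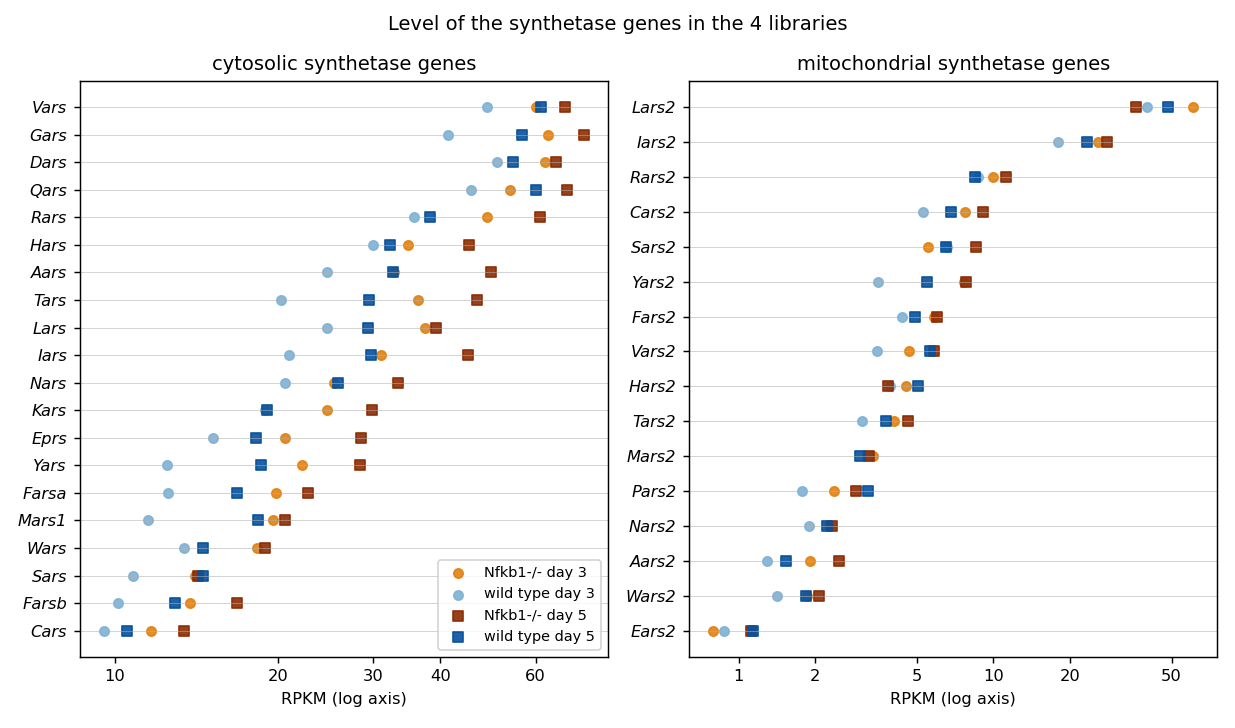
RPKM of the synthetase genes reported by name (log axis) in the 4 libraries, with cytosolic genes at left and mitochondrial genes at right, each ordered by mean level. The wild-type day 3 library (pale circles) is the lowest for all 20 cytosolic genes, and the Nfkb1-/- day 5 library (dark brown squares) is the highest for 19 of them.

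The 4 libraries stood in a nearly fixed order for the cytosolic genes. Wild type at day 3 had the lowest level for all 20, and Nfkb1-/- at day 5 had the highest for 19, the exception being Sars, for serine, which was highest in wild type at day 5. Over all 11786 genes tested, 49.4% were lowest in wild type at day 3 and 36.4% highest in Nfkb1-/- at day 5. After rescaling by the median ratio, which sets the middle gene of each library level, wild type at day 3 stayed lowest for 14 of the 20 (30.2% of all genes) and Nfkb1-/- at day 5 stayed highest for 19 (31.2%). Among the 17 mitochondrial genes, 11 were lowest in wild type at day 3 and 12 highest in Nfkb1-/- at day 5. Late neutrophil markers had the reverse extremes, with their highest sum in wild type at day 3 and their lowest in Nfkb1-/- at day 5. Summed proliferation markers ran with the cytosolic synthetases, at 713 RPKM in Nfkb1-/- cells and 505 RPKM in wild type at day 3, and 957 RPKM in Nfkb1-/- cells and 679 RPKM in wild type at day 5. Among these markers Mki67 alone was lower in Nfkb1-/- cells at day 3, at 56.6 RPKM against 65.3 RPKM in wild type. At day 5 Mki67 stood at 98.7 RPKM in Nfkb1-/- cells and 60.5 RPKM in wild type. The part of either set of markers in the synthetase differences was not tested.

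At day 3 synthetase mRNAs were higher in Nfkb1-/- cells than in wild type almost throughout. On the scale of log2(RPKM + 1), which understates differences of low genes, 35 of the 36 compared members were above 0, against 66.6% of all genes tested. A difference of at least 0.5 was reached upward by 10 members (27.8%, against 10.8% of all genes) and downward by 0 (against 4.43%). After the median ratio rescaling the upward count was 5 of 36, against 5.12% of all genes upward and 7.53% downward, and at the same sum of RPKM it was 8, against 7.34% upward and 5.897% downward. A difference of at least 1 was reached by 0 members, against 0.976% of all genes upward and 0.882% downward. The median was 0.42 over cytosolic genes and 0.33 over mitochondrial ones, beside 0.13 over all genes. Rescaling by the median ratio moved the median of all genes to -0.02, but the distance of the cytosolic median above it was 0.29 as deposited and 0.28 after rescaling. That of the mitochondrial median was 0.20 and 0.22.

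Threonyl, tyrosyl and methionyl tRNA synthetase led the cytosolic genes at day 3. Tars (NM_033074) stood at 36.4 RPKM in Nfkb1-/- cells and 20.2 RPKM in wild type at day 3, a ratio of 1.798 (1.65 to 1.96) with the exact 95% interval of its reads, which covers counting error only. Yars (NR_160965) stood at 22.2 RPKM in Nfkb1-/- cells and 12.5 RPKM in wild type at day 3, a ratio of 1.78 (1.59 to 1.997). Mars1 (NM_001003913), whose enzyme also charges the initiator tRNA, stood at 19.6 RPKM in Nfkb1-/- cells and 11.5 RPKM in wild type at day 3, a ratio of 1.704 (1.53 to 1.902). For all 20 cytosolic genes the interval lay above 1. Farsa (0.63), Gars (0.60), Lars (0.58) and Iars (0.55) also passed 0.5, the enzymes for phenylalanine, glycine, leucine and isoleucine. The smallest differences were those of Hars, for histidine, at 0.21, Qars, for glutamine, at 0.23, and Cars at 0.26. The ratio of Hars was 1.16 (1.06 to 1.27), with 34.9 RPKM in Nfkb1-/- cells and 30.02 RPKM in wild type at day 3.

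Of the mitochondrial genes, Yars2 (NM_198246), for tyrosine, had the largest difference of any member at day 3. It stood at 7.66 RPKM in Nfkb1-/- cells and 3.51 RPKM in wild type at day 3, on 197 and 85 reads, a ratio of 2.18 (1.68 to 2.85). Lars2 also passed 0.5, with 60.9 RPKM in Nfkb1-/- cells and 40.2 RPKM in wild type at day 3, a ratio of 1.52 (1.44 to 1.596). Sars2, for serine, was the compared member below 0, at -0.22, with 5.52 RPKM in Nfkb1-/- cells and 6.59 RPKM in wild type at day 3. Its interval, 0.678 to 1.04, included 1. Mars2 was close to level at 0.06, and turned negative under both rescalings (-0.07 by the median ratio and -0.00844 by the same sum of RPKM). The genes at neither end were Nars2 (0.18), Wars2 (0.24), Tars2 (0.32), Fars2 (0.36), Cars2 (0.48) and Iars2 (0.49), with Rars2, Pars2, Vars2 and Aars2 between 0.19 and 0.35. Over all 17 mitochondrial genes the interval lay above 1 for 9 and included 1 for 8, on far fewer reads than the cytosolic genes had.

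**Figure D2:**
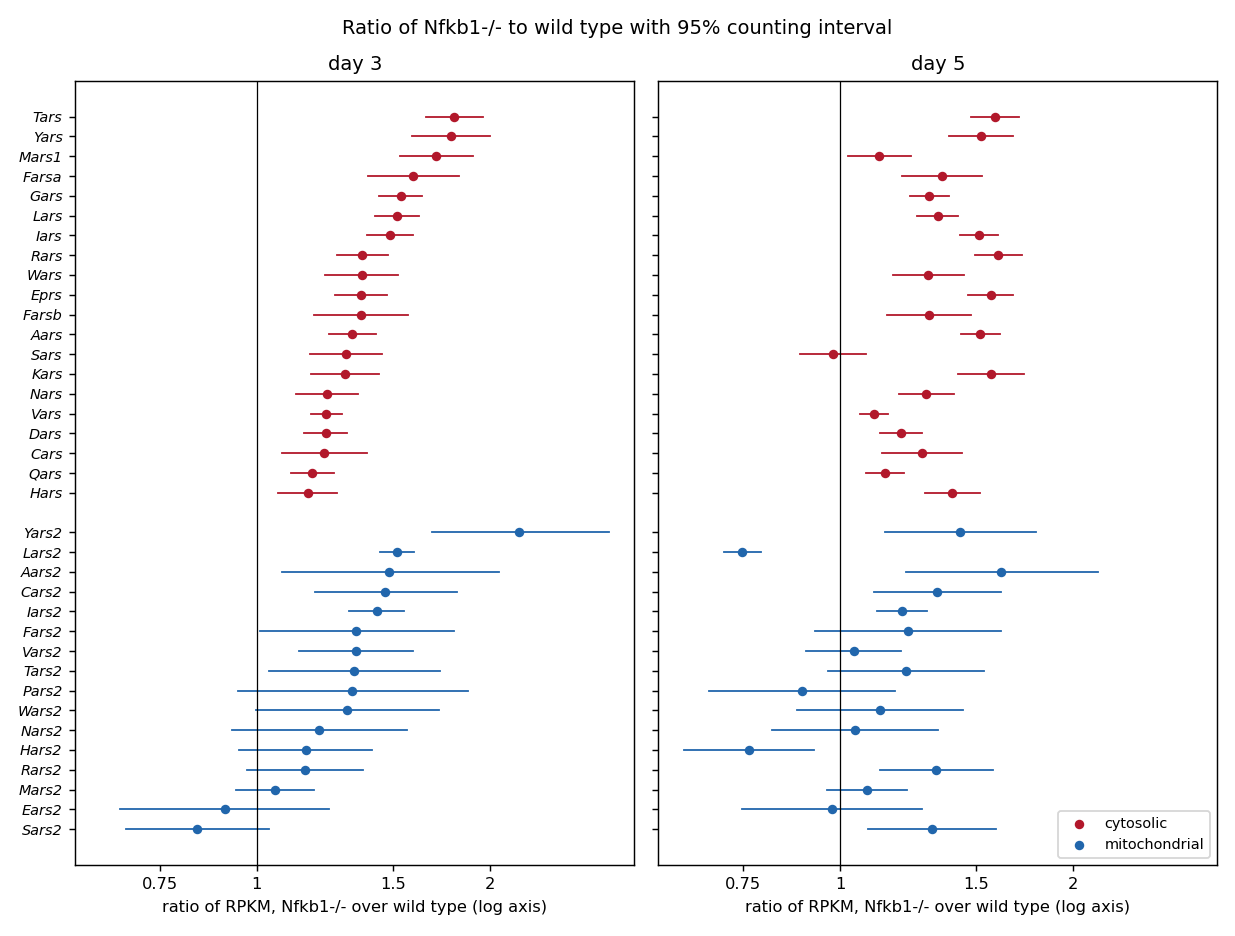
Ratio of RPKM of Nfkb1-/- over wild type (log axis) for the synthetase genes reported by name at day 3 (left) and day 5 (right), ordered by the day 3 ratio within each class. Bars are exact 95% intervals of the reads and cover counting error only, and the line marks a ratio of 1; Lars2 and Hars2 lie below it at day 5 with intervals that exclude it.

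At day 5 the cytosolic genes were again higher in Nfkb1-/- cells, while the mitochondrial genes were mixed. Of the 36 members, 32 were above 0, against 51.2% of all genes. A difference of at least 0.5 was reached upward by 8 (22.2%, against 8.54% of all genes) and downward by 0 (against 11.5%). None reached 1 in either direction (0 members, against 1.16% of all genes upward and 3.22% downward). The median was 0.39 over cytosolic genes, with 7 of 20 past 0.5, and 0.24 over mitochondrial genes, with 1 of 16 past it, beside 0.01 over all genes. Arginyl tRNA synthetase, Rars (NM_025936), led with 61.3 RPKM in Nfkb1-/- cells and 38.3 RPKM in wild type at day 5, a ratio of 1.5997 (1.49 to 1.72). Tars stood at 46.7 RPKM in Nfkb1-/- cells and 29.4 RPKM in wild type at day 5, a ratio of 1.59 (1.48 to 1.704), and Kars, for lysine, at 29.9 RPKM in Nfkb1-/- cells and 19.1 RPKM in wild type at day 5, a ratio of 1.57 (1.42 to 1.73). Eprs (0.62), Aars (0.59), Iars (0.58) and Yars (0.58) were the other cytosolic genes past 0.5. The remaining 10, Cars, Dars, Farsa, Farsb, Gars, Hars, Lars, Nars, Qars and Wars, lay between 0.19 (Qars) and 0.47 (Hars). At the low end were Vars at 0.14, Mars1 at 0.16 and Sars at -0.03. Sars stood at 14.2 RPKM in Nfkb1-/- cells and 14.5 RPKM in wild type at day 5, its ratio of 0.979 (0.888 to 1.08) was the sole cytosolic one whose interval included 1, and its difference turned positive when libraries were rescaled to the same sum of RPKM (0.003). Mars1 at day 5 stood at 20.6 RPKM in Nfkb1-/- cells and 18.4 RPKM in wild type at day 5, a ratio of 1.12 (1.02 to 1.23), well under its ratio at day 3.

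Among mitochondrial genes at day 5, Aars2, for alanine, had 2.48 RPKM in Nfkb1-/- cells and 1.54 RPKM in wild type at day 5, a ratio of 1.61 (1.21 to 2.15) on 128 and 83 reads. Yars2 stood at 7.82 RPKM in Nfkb1-/- cells and 5.47 RPKM in wild type at day 5, a ratio of 1.43 (1.14 to 1.79). These genes were higher in Nfkb1-/- cells at both days. Lars2, Hars2 and Pars2 were lower at day 5. Lars2 stood at 36.2 RPKM in Nfkb1-/- cells and 48.4 RPKM in wild type at day 5, a ratio of 0.748 (0.708 to 0.7904). Hars2, for histidine, stood at 3.86 RPKM in Nfkb1-/- cells and 5.05 RPKM in wild type at day 5, a ratio of 0.763 (0.628 to 0.926), and Pars2, for proline, at 2.89 RPKM in Nfkb1-/- cells and 3.23 RPKM in wild type at day 5, a ratio of 0.895 (0.678 to 1.18) that included 1. In these data Hars2 thus stood below wild type on the same day on which its cytosolic counterpart Hars stood above it, at 45.1 RPKM in Nfkb1-/- cells and 32.3 RPKM in wild type at day 5, a ratio of 1.396 (1.29 to 1.51).

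**Figure D3:**
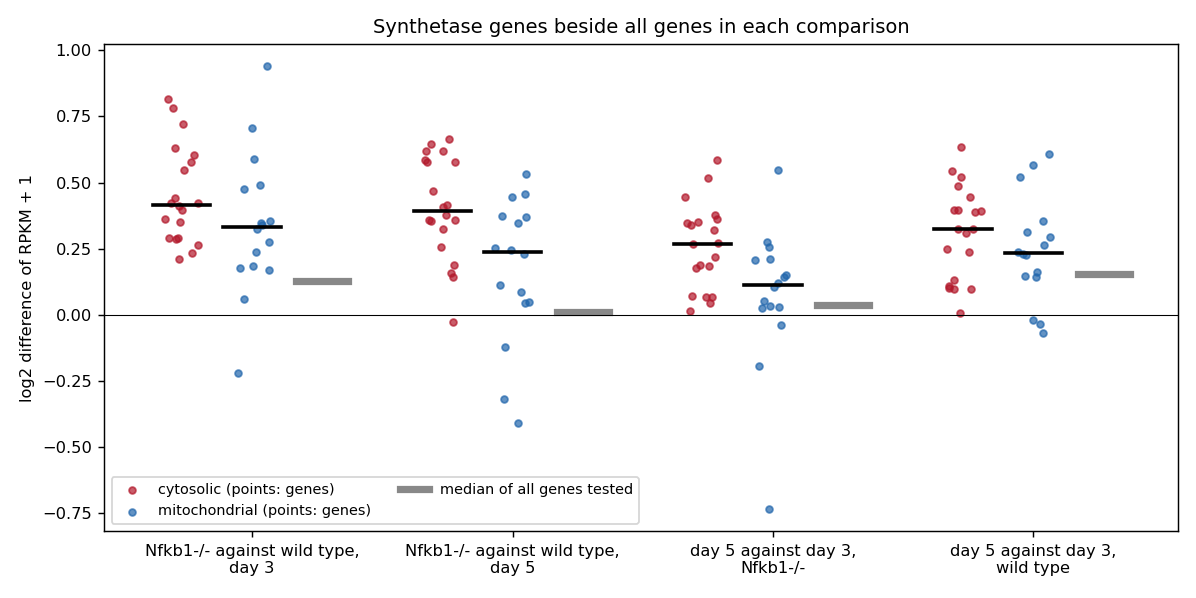
Log2 difference of RPKM + 1 for each cytosolic (red) and mitochondrial (blue) synthetase gene in the 4 comparisons, with black lines at the class medians and grey lines at the median of all 11786 genes tested. Both class medians lie above the median of all genes in each comparison, and the cytosolic one is the higher in each at the filter of 1 RPKM.

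Set against each other by amino acid, the classes lay closer at day 3 than at day 5, which was not tested. In the 14 amino acids with 1 compared gene of each kind, the cytosolic difference was the larger for 9 at day 3, with a median gap of 0.05, and for 11 at day 5, with a median gap of 0.19. Since adding 1 RPKM shrinks low mitochondrial values more, the plain ratios were compared too. Without it the cytosolic difference was the larger for 8 at day 3 (median gap 0.02) and for 10 at day 5 (median gap 0.15). Both classes together were above 0 at both days for 31 of 36 members, against 41.2% of all genes, with 19 of 20 cytosolic and 12 of 16 mitochondrial genes.

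Within the cytosolic class, the 12 synthetases known as Atf4 targets had a median of 0.49 at day 3, with 6 past 0.5, against 10.8% of all genes. The other 8 had 0.33, with 1 past 0.5 (12.5%, near the share of all genes), that of Farsa at 0.63. At day 5 the medians were 0.39, with 5 past 0.5, and 0.39, with 2 past it (Kars and Rars), against 8.54% of all genes, so the gap between these sublists at day 3 was not there at day 5. The 8 synthetases of the multisynthetase complex had a median of 0.43 at day 3 and one of 0.49 at day 5, beside 0.40 and 0.37 for the other 12. The scaffold gene Aimp2 stood at 13.1 RPKM in Nfkb1-/- cells and 6.64 RPKM in wild type at day 3, and 13.6 RPKM in Nfkb1-/- cells and 9.48 RPKM in wild type at day 5. Eef1e1 stood at 14.4 RPKM in Nfkb1-/- cells and 9.65 RPKM in wild type at day 3, and 19.6 RPKM in Nfkb1-/- cells and 13.1 RPKM in wild type at day 5. Aimp1, the most abundant of these scaffold transcripts, differed by 0.35 at day 3 and 0.08 at day 5.

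Promoter sequences are shown for the genes whose window holds the core letters of the element that Atf4 binds with C/EBP partners, since these 5 cytosolic genes include Tars and Yars, the leading ones at day 3. RefSeq promoters (build GRCm38.p6, 250 bases before to 50 after the transcription start) were at hand for 27 of the 37 members, 13 cytosolic and 14 mitochondrial. Cars, Hars, Hars2, Lars, Nars, Pars2, Rars, Vars and Wars were not among them. The letters TGATGNAA, on either strand, were found in 5 of the 13 cytosolic promoters (38.5%), in 0 of the 14 mitochondrial promoters, and in 4.06% of all 27025 promoters of the same length. CACGTG, the E-box bound by Myc and related factors, which reads the same on both strands, was in 4 cytosolic promoters (30.8%), in 1 mitochondrial promoter (7.14%) and in 7.24% of all. The kappaB consensus was in 1 of each class (Iars and Iars2), or 7.69% and 7.14%, beside 8.18% of all. The matches of these motifs in the printed promoters do not overlap one another. The promoters with TGATGNAA were Aars at chr8:111033592-111033891 (plus strand), Gars at chr6:55037751-55038050 (plus strand), Iars at chr13:49681880-49682179 (plus strand), Tars at chr15:11399609-11399908 (minus strand) and Yars at chr4:129189653-129189952 (plus strand). The first base of the match lay 112 bases before the start and at base 10 after it in Aars, 30 before in Gars, at base 8 after it in Iars, 15 before in Tars and at base 4 after it in Yars, counted on the gene's strand. Each is printed 5′ to 3′ on that strand with TGATGNAA and CACGTG in capitals, followed by Yars2 at chr16:16302715-16303014 (plus strand), which has neither and belongs to the member with the largest difference at day 3.
Aars: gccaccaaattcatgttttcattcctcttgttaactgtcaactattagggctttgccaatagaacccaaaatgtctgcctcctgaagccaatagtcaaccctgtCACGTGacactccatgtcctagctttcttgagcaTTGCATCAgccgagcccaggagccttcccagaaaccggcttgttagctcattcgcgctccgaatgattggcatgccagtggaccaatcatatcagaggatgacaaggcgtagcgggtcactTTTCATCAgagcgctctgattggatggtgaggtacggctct
Gars: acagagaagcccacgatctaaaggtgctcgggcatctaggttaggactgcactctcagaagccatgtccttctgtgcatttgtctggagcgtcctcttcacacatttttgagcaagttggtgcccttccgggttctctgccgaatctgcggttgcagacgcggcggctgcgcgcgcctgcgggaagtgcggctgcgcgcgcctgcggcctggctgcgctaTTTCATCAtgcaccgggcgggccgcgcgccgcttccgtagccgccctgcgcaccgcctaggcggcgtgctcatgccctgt
Iars: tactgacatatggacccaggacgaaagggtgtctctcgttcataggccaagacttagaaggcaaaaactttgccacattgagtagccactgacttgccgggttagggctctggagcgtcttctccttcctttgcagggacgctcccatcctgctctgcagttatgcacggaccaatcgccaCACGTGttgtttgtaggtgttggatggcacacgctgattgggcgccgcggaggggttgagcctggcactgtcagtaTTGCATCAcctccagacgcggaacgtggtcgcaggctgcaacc
Tars: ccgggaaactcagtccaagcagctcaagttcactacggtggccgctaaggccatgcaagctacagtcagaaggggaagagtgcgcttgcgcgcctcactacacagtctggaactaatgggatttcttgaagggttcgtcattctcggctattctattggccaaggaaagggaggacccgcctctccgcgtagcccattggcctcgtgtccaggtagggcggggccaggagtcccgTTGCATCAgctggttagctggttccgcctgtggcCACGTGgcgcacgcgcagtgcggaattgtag
Yars: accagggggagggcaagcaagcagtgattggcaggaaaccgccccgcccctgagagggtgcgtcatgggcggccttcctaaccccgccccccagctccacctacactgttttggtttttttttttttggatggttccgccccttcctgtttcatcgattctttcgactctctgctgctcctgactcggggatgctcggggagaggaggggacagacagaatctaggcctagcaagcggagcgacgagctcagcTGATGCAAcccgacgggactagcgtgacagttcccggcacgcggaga
Yars2: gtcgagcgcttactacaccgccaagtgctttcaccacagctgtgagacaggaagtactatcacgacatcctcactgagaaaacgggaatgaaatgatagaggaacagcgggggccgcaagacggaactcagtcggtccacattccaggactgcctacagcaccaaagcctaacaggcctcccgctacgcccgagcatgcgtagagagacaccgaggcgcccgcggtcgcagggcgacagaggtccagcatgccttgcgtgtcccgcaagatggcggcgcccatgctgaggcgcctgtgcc
The genes of these promoters, in the order printed, differed between Nfkb1-/- and wild type by 0.39, 0.60, 0.55, 0.82, 0.78 and 0.94 (log2) at day 3, and by 0.59, 0.38, 0.58, 0.65, 0.58 and 0.45 at day 5. Among cytosolic genes whose windows lacked TGATGNAA, Mars1 and Farsa differed most at day 3, by 0.72 and 0.63. Eprs (0.42), Farsb (0.41), Kars (0.36), Sars (0.35), Dars (0.29) and Qars (0.23) followed. At day 5 these genes lay between -0.03 (Sars) and 0.62 (Kars). Mars1 held none of the 3 motifs in its window. Whether the letters go with the size of a difference was not tested. A match in these letters is a description of the sequence and not a binding site.

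Other genes of the amino acid response, from a list chosen with earlier results of these data known, were in part higher in Nfkb1-/- cells. Of 32 genes, 24 passed the filter, and 8 of these were higher by at least 0.5 at day 3 (33.3%, against 10.8% of all genes) and 10 at day 5 (41.7%, against 8.54%), with 0 lower at either day (against 4.43% at day 3 and 11.5% at day 5). Their medians were 0.40 and 0.38. Nupr1, a small stress-response regulator, stood at 27.3 RPKM in Nfkb1-/- cells and 12.9 RPKM in wild type at day 3, and 28.01 RPKM in Nfkb1-/- cells and 8.82 RPKM in wild type at day 5. Asns, asparagine synthetase, stood at 8.37 RPKM in Nfkb1-/- cells and 5.79 RPKM in wild type at day 3, and 14.9 RPKM in Nfkb1-/- cells and 4.72 RPKM in wild type at day 5. Shmt2, a mitochondrial enzyme of serine and one-carbon metabolism, stood at 41.6 RPKM in Nfkb1-/- cells and 21.5 RPKM in wild type at day 3, and 63.5 RPKM in Nfkb1-/- cells and 26.2 RPKM in wild type at day 5. The difference between the genotypes was larger at day 5 than at day 3 for each of these genes, which were named for their large differences. Over the 24 compared genes of the list the median change of that difference from day 3 to day 5 was -0.04. It was above 0 for 11 genes and below 0 for 13. Slc7a5, a transporter of large neutral amino acids, passed 1 at day 3 with a difference of 1.03. Atf4 itself differed by 0.41 at day 3 and 0.23 at day 5, whereas its stress target Ddit3 was at -0.17 and -0.23. The list thus held members on both sides of 0, with 20 of 24 above it at day 3 and 17 at day 5.

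Mitochondrial ribosomal protein genes, the machinery that the mitochondrial synthetases feed, were higher in Nfkb1-/- cells by a median of 0.39 at day 3, and by 0.40 at day 5. Of the 78 genes, all of which passed the filter, 21 were higher by at least 0.5 at day 3 (26.9%, against 10.8% of all genes) and 22 at day 5 (28.2%, against 8.54%). None was lower by as much (0 genes, against 4.43% at day 3 and 11.5% at day 5). The 10 factors of mitochondrial translation had medians of 0.25 and 0.25, with 2 past 0.5 at day 3 (against 10.8% of all genes) and 3 at day 5 (against 8.54%). At day 5 the mitochondrial synthetases, with a median of 0.24, stood nearer to these factors than to the ribosomal proteins.

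From day 3 to day 5 the cytosolic genes were higher in both genotypes, though in wild type most other genes were too. These comparisons share their libraries with the genotype comparisons above, so the values are given side by side and not as further support. In Nfkb1-/- cells the median at day 5 against day 3 was 0.27 over cytosolic genes and 0.11 over mitochondrial ones, beside 0.04 over all genes. By at least 0.5, 3 members were higher (8.33%, against 4.96% of all genes) and 1 was lower (2.78%, against 9.15%). At the same sum of RPKM 4 were higher, against 8.12% of all genes upward and 7.53% downward, and with a pseudocount of 5 RPKM 1 was, against 1.78% upward. A difference of 1 or more was reached by 0 members, against 0.594% of all genes upward and 3.01% downward. In wild type the medians were 0.32 over cytosolic and 0.23 over mitochondrial genes, beside 0.16 over all genes. By at least 0.5, 6 members were higher (16.7%, against 13.0% of all genes) and 0 were lower (against 6.70%), a share close to that of all genes. After the median ratio rescaling 0 members were higher, against 6.74% of all genes upward and 10.1% downward, and with a pseudocount of 5 RPKM 1 was, against 4.99% upward. A difference of 1 or more was again reached by 0 members, against 1.80% of all genes upward and 2.05% downward. In each genotype 33 of the 36 members were above 0, against 56.1% of all genes in Nfkb1-/- cells and 69.3% in wild type, and 31 were above 0 in both, against 45.6%. All 20 cytosolic genes were among these, but in wild type this fell to 14 of 20 after the median ratio rescaling, which moved the median of all genes to 0.01. In Nfkb1-/- cells the same rescaling left 19 of 20 above 0, the exception being Sars. For the ratio of day 5 to day 3 in Nfkb1-/- cells, the counting interval lay above 1 for 19 of all 37 members. It included 1 for 17 and lay below 1 for 1. In wild type it lay above 1 for 23 and included 1 for 14.

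In Nfkb1-/- cells Aars had the largest difference between the days among cytosolic genes, with 49.6 RPKM at day 5 against 32.8 RPKM at day 3, a ratio of 1.51 (1.43 to 1.61). Iars (0.52) and Eprs (0.45) came next. Sars, Wars and Dars differed least, by 0.02, 0.05 and 0.07. In wild type Mars1 led, with 18.4 RPKM at day 5 against 11.5 RPKM at day 3, a ratio of 1.599 (1.43 to 1.79), followed by Yars (0.54) and Tars (0.52). Kars was level there, at 19.1 RPKM at day 5 against 18.97 RPKM at day 3, and its difference of 0.01 turned negative under both rescalings. Dars (0.10) and Rars (0.10) turned negative under the median ratio rescaling alone. The genes that led therefore differed by genotype: Mars1 differed by 0.07 between the days in Nfkb1-/- cells, and by 0.63 in wild type, which was not tested.

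Mitochondrial genes had lower medians than cytosolic ones between the days in both genotypes. In Nfkb1-/- cells Sars2 had 8.53 RPKM at day 5 against 5.52 RPKM at day 3, a ratio of 1.55 (1.27 to 1.89), and was the sole mitochondrial gene past 0.5 upward. Vars2 (0.28) and Aars2 (0.26) followed. At the other end Lars2 had 36.2 RPKM at day 5 against 60.9 RPKM at day 3, a ratio of 0.594 (0.564 to 0.627), and was the 1 member past 0.5 downward. Hars2 differed by -0.19 and Mars2 by -0.04, and the value of Mars2 turned positive when libraries were rescaled to the same sum of RPKM. Mars2 supplies methionine to mitochondrial tRNA, and its level was nearly flat in all comparisons. In wild type Pars2 had 3.23 RPKM at day 5 against 1.78 RPKM at day 3, a ratio of 1.82 (1.32 to 2.52) on 117 and 61 reads. Vars2 differed there by 0.57 and Yars2 by 0.52, while Mars2 (-0.07), Rars2 (-0.03) and Sars2 (-0.02) were at or just under 0. Mars2 was the steadiest member, with 2.99 to 3.36 RPKM over the libraries.

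**Figure D4:**
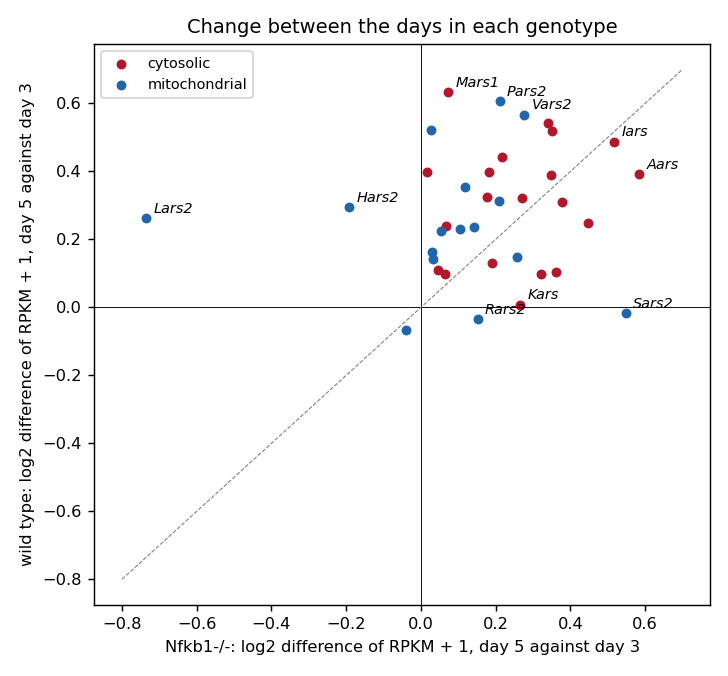
Log2 difference of RPKM + 1 at day 5 against day 3 in Nfkb1-/- cells (horizontal) and in wild type (vertical) for the 36 compared synthetase genes; the dashed line marks equal differences. Lars2 and Hars2 lie left of 0, lower at day 5 in Nfkb1-/- cells and higher in wild type, and Sars2 lies furthest right of the mitochondrial genes.

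Lars2 had another order of libraries than the other mitochondrial synthetases summed, and it varied with Rn45s, the precursor of ribosomal RNA. Lars2 stood at 60.9 RPKM in Nfkb1-/- cells and 40.2 RPKM in wild type at day 3, and 36.2 RPKM in Nfkb1-/- cells and 48.4 RPKM in wild type at day 5. Rn45s stood at 2572 RPKM in Nfkb1-/- cells and 1852 RPKM in wild type at day 3, and at 1717 RPKM in Nfkb1-/- cells and 2052 RPKM in wild type at day 5. The order of the 4 libraries was the same for both genes, with Nfkb1-/- highest at day 3 and lowest at day 5. As a percentage of Rn45s, Lars2 was 2.37% in Nfkb1-/- cells and 2.17% in wild type at day 3, and 2.11% in Nfkb1-/- cells and 2.36% in wild type at day 5. The log2 ratio to Rn45s spanned 0.17 over the libraries for Lars2, the 19th smallest span of 11785 genes, against 0.48 to 1.32 (median 0.90) for the other 35 compared synthetases. The pairing with Rn45s was chosen after its values were seen, over 4 libraries, and whether reads of ribosomal RNA enter the count of Lars2 was not tested. Without Lars2, the summed level of the other 16 mitochondrial genes was 96.7 RPKM in Nfkb1-/- cells and 72.1 RPKM in wild type at day 3, and 108 RPKM in Nfkb1-/- cells and 88.6 RPKM in wild type at day 5. With Lars2 the sum at day 5 was 144 RPKM in Nfkb1-/- cells and 137 RPKM in wild type, so the genotypes lay closer in the sum with this gene than without it. The summed cytosolic level over that of the other 16 was 6.73 in Nfkb1-/- cells and 6.63 in wild type at day 3, and 7.32 in Nfkb1-/- cells and 6.705 in wild type at day 5.

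**Figure D5:**
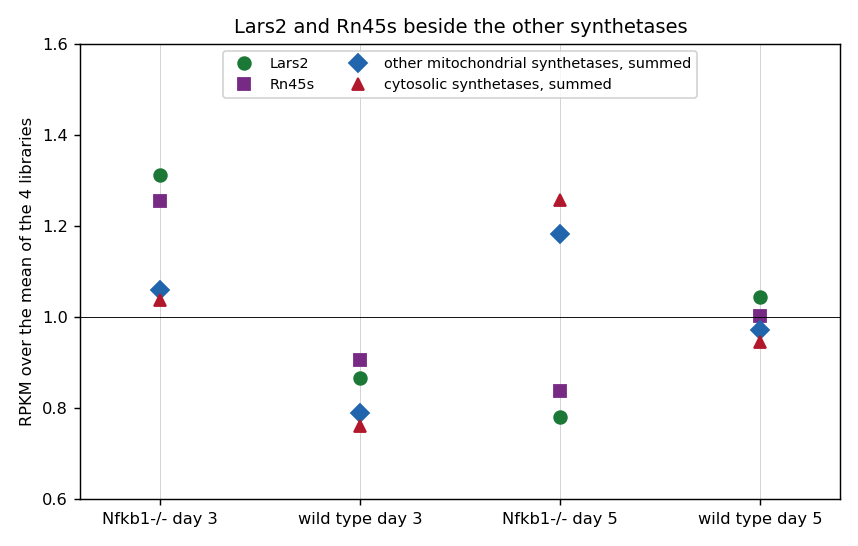
RPKM over the mean of the 4 libraries for Lars2, for Rn45s, for the 16 other mitochondrial synthetases summed and for the 20 cytosolic synthetases summed. Lars2 and Rn45s are highest in Nfkb1-/- at day 3 and lowest in Nfkb1-/- at day 5, where both synthetase sums are highest.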

How the data were processed

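RNA was sequenced from 4 cultures, 1 library for each genotype and day, and the authors deposited 1 table of RPKM values per gene, in which reads are divided by transcript length and library total. The submitters' processing notes name HISAT2, SAMtools and the genome build mm9. The sources used here give neither the counting tool nor the annotation, and do not say whether strand was used. Every column was used (0 left out). The table holds 0 values of 0, and 7985 genes stand at the value of 1 read in all 4 libraries. That a gene without reads stands there too was inferred from these values and is not stated in the labels.

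Reads were recovered from the steps of the RPKM values, whole within 0.003 for all 37 synthetase genes, and ratios carry exact (Clopper-Pearson) 95% intervals of these reads. The intervals cover counting error only, since each group has 1 library, and any PCR copies left in would count as reads. Differences were taken as log2(RPKM + 1) over the 11786 genes whose mean over the libraries reached 1 RPKM, and described at sizes of at least 0.5 and of at least 1. With 1 library per group there was no test. The members, the gene lists and the comparisons were chosen with earlier results of these data known. The text names, per class and comparison, the 3 genes with the highest and the 3 with the lowest difference, the extremes by level, and up to 3 of each other list. Of the members, 1 is counted in the class totals but is not reported here by name. Other genes named were chosen after their values were seen, among them Rn45s, Farsa, Farsb and the remaining cytosolic genes past 0.5. Alternatives were other pseudocounts, other filters and 2 rescalings of the libraries. Leaving out Lars2 was added after seeing the data. The scripts, in Python 3.11.15 with pandas 2.3.3, numpy 2.4.6 and scipy 1.17.1, were tested on simulated data.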

Additional observations from a re-analysis of the deposited data

Results flagged for a closer look

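For 6 of the 36 compared synthetase genes a difference had opposite signs in the groups compared, which is what picked them out. Such signs were rarer among the members (16.7%) than among all genes tested (49.2%), and fell on 5 of the 16 mitochondrial genes and 1 of the 20 cytosolic ones. With 1 library per genotype and day, none of these changes was tested. Lars2, Hars2, Pars2, Sars and Sars2 differed between Nfkb1-/- and wild type in opposite directions at the days. Lars2 changed most: its log2 difference was 0.59 at day 3 and -0.41 at day 5, a change of -0.998, and the intervals of its reads excluded a ratio of 1 at both days. For Hars2 the values were 0.17 at day 3 and -0.32 at day 5, a change of -0.49, and the interval excluded 1 at day 5 alone. Pars2 had 0.27 at day 3 and -0.12 at day 5, a change of -0.40, with both intervals including 1. Sars had 0.35 at day 3 and -0.03 at day 5, a change of -0.38, and its sign at day 5 turned under the rescaling to the same sum of RPKM. Sars2 had -0.22 at day 3 and 0.35 at day 5, a change of 0.57, with an interval that excluded 1 at day 5. Rars2 was higher in Nfkb1-/- cells at both days, by 0.19 at day 3 and 0.37 at day 5, a change of 0.19, and was picked out because day 5 against day 3 gave 0.15 in Nfkb1-/- cells and -0.03 in wild type. Over all genes tested the median change was -0.14.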

How the results depend on the processing

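No class median or count of the 4 comparisons changed sign under the alternatives run. Of named values near 0, 9 signs turned (5 under the median ratio rescaling and 4 under the same sum of RPKM). From day 3 to day 5 the genotype difference changed by a cytosolic median of -0.05 as deposited, of 0.09 by the median ratio and of 0.07 at the same sum. The cause of the shifts below was not tested beyond what each setting changes by construction. In cytosolic genes the median difference of Nfkb1-/- against wild type at day 3 was 0.45 with no pseudocount, 0.44 with a pseudocount of 0.1 RPKM, 0.34 with 5 RPKM, 0.26 after median ratio rescaling and 0.33 after rescaling to the same sum. In mitochondrial genes it was 0.42, 0.41, 0.15, 0.20 and 0.26 in the same order, and 0.48 with a filter of 5 RPKM. With that filter the order of the classes at day 3 was reversed. The mitochondrial median lay 0.32 above that of all genes, and the cytosolic median 0.25 above it. Of all 36 members, 5 passed 0.5 after median ratio rescaling, against 10 as deposited. At day 5 the cytosolic median was 0.35 with a pseudocount of 5 RPKM and 0.43 at the same sum, and the mitochondrial one 0.14 with that pseudocount and 0.36 with the filter of 5 RPKM. Between the days in Nfkb1-/- cells the cytosolic median was 0.23 with a pseudocount of 5 RPKM, 0.25 by the median ratio and 0.35 at the same sum, and the mitochondrial one 0.063 with that pseudocount and 0.18 at the same sum. There 1 member passed 0.5 upward with a pseudocount of 5 RPKM, and 0 passed it downward without Lars2. Between the days in wild type the cytosolic median was 0.28 with a pseudocount of 5 RPKM, 0.16 by the median ratio and 0.29 at the same sum. The mitochondrial one was 0.29 with no pseudocount, 0.28 with 0.1 RPKM, 0.13 with 5 RPKM and 0.10 by the median ratio, and 1 member passed 0.5 with a pseudocount of 5 RPKM and 0 by the median ratio.

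No paired analysis of replicates was possible because each genotype and day has 1 library. An additive model of genotype and day, which leaves 1 residual degree of freedom, was not run. Differences between groups therefore cannot be told apart from differences between cultures. Mitochondrial genes rest on a median of 189.5 reads a library and cytosolic ones on 1150, so most mitochondrial ratios have wider intervals.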

Other observations

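The lists below of genes that handle tRNA had lower medians than the cytosolic synthetases, except that the elongation factors were about level at day 3. The 3 scaffold genes of the multisynthetase complex had higher medians, 0.53 at day 3 and 0.48 at day 5. The median differences of Nfkb1-/- against wild type in cytosolic synthetases were 0.42 at day 3 and 0.39 at day 5. The 30 genes of tRNA transcription and maturation had a median of 0.26 at day 3 and 0.19 at day 5, with 6 higher by at least 0.5 at day 3 (20%, against 10.8% of all genes) and 4 at day 5 (13.3%, against 8.54%), and 0 and 1 lower (against 4.43% and 11.5%). The 11 genes of proofreading and of indirect charging had 0.07 at day 3 and 0.23 at day 5, with 1 higher by at least 0.5 at each day (9.09%, near the shares of all genes). Of these 11, 6 were above 0 and 5 below at day 3, against 66.6% of all genes above 0. Above 0 at day 5 were 9, with 2 below, against 51.2% of all genes above 0. Ankrd16 was below 0 at both days, at -0.35 and -0.41. Aarsd1, a homologue of the editing domain of alanyl tRNA synthetase, stood at 28.2 RPKM in Nfkb1-/- cells and 16.8 RPKM in wild type at day 3, and 31.9 RPKM in Nfkb1-/- cells and 24.1 RPKM in wild type at day 5. Dtd1, which removes D-amino acids from tRNA, stood at 7.02 RPKM in Nfkb1-/- cells and 5.67 RPKM in wild type at day 3, and 7.64 RPKM in Nfkb1-/- cells and 3.48 RPKM in wild type at day 5. The 6 cytosolic elongation factors, which carry or move charged tRNA on the ribosome, had 0.41 at day 3 and 0.27 at day 5. Higher by at least 0.5 were 0 at day 3 (against 10.8% of all genes) and 2 at day 5 (33.3%, against 8.54%). Lower by as much were 0 at either day (against 4.43% and 11.5%). The 14 genes listed for amino acid sensing, with the kinases Eif2ak2 and Eif2ak3 among them, had 0.05 at day 3 and -0.004 at day 5. Past 0.5 were 0 at day 3, against 10.8% of all genes upward and 4.43% downward. At day 5 there were 0 too, against 8.54% upward and 11.5% downward. Tarsl2, a second threonyl enzyme whose symbol lies outside the pattern, stood at 2.97 RPKM in Nfkb1-/- cells and 2.52 RPKM in wild type at day 3, and 4.21 RPKM in Nfkb1-/- cells and 3.17 RPKM in wild type at day 5.

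Markers of other cell types, whose part in the synthetase differences was not tested, had these summed levels. Monocyte and macrophage markers summed to 1699 RPKM in Nfkb1-/- cells and 1147 RPKM in wild type at day 3, and 1449 RPKM in Nfkb1-/- cells and 1032 RPKM in wild type at day 5. Of these 6 markers, Ly6c2, Csf1r and Ccr2 were higher in Nfkb1-/- cells at both days and Adgre1, Mrc1 and Cd68 lower. Plasmacytoid dendritic markers summed to 319 RPKM in Nfkb1-/- cells and 305 RPKM in wild type at day 3, and 275 RPKM in Nfkb1-/- cells and 419 RPKM in wild type at day 5. At day 3 the sum followed Bst2, while 4 of the 5 markers were lower in Nfkb1-/- cells, Siglech by -0.93 and Ccr9 by -0.70 (log2), and at day 5 all 5 were lower. B cell markers summed to 294 RPKM in Nfkb1-/- cells and 326 RPKM in wild type at day 3, and 105 RPKM in Nfkb1-/- cells and 186 RPKM in wild type at day 5. Markers of T and NK cells summed to 3.62 RPKM in Nfkb1-/- cells and 15.003 RPKM in wild type at day 3, and 1.26 RPKM in Nfkb1-/- cells and 5.38 RPKM in wild type at day 5. Of these 5 markers, 2 exceeded 1 RPKM in Nfkb1-/- cells and 4 in wild type at day 3. The counts at day 5 were 0 in Nfkb1-/- cells and 2 in wild type. Erythroid markers summed to 52.8 RPKM in Nfkb1-/- cells and 253 RPKM in wild type at day 3, and 4.12 RPKM in Nfkb1-/- cells and 11.9 RPKM in wild type at day 5. Of these 5, 3 exceeded 1 RPKM in wild type at day 3 and 2 in each other library. Hbb-b1 alone stood at 203 RPKM in wild type at day 3.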
